A study of Mus musculus with 3 samples.

Results

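The Toll-like receptor genes of the mouse were taken here as 10 named members, Tlr1 to Tlr9 and Tlr13, and all 10 were found among the 21851 protein-coding genes of the annotation. They were chosen by name, by a rule that uses no measured value, though with earlier results of these data known. Accessible chromatin around them was measured by DNase-seq, in which the nuclease DNase I cuts open DNA and peaks of cutting mark promoters and other regulatory elements. The material was monocytes, phagocytes that circulate in blood and can become macrophages, taken as primary cells from adult female mice of 2 months. The strain was B6CASTF1/J, the first-generation cross of C57BL/6J and CAST/EiJ, with no treatment and no introduced allele named in the labels. All 3 libraries form 1 group. The labels number them 1, 2 and 4 as biological replicates, each with 1 technical replicate, and give the same donor identifier to all. Separate animals are not stated, so each SD below measures the spread between libraries, which may be technical.

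Toll-like receptors recognise molecules of microbes and start inflammatory transcription. The receptors of the cell surface bind lipids, lipopeptides and proteins of microbial walls, while those of endosomes bind nucleic acids. After binding, adaptor proteins such as Myd88 recruit kinases of the Irak family, and the signal ends at NF-kB, AP-1 and interferon regulatory factors. Tlr1, Tlr2, Tlr4, Tlr5 and Tlr6 were counted as surface receptors, and Tlr3, Tlr7, Tlr8, Tlr9 and Tlr13 as endosomal receptors. In monocytes and macrophages the surface receptors are known for sensing bacteria, and Tlr4 with its co-receptor Cd14 for sensing lipopolysaccharide.

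The libraries of replicates 1, 2 and 4 held 54046, 42657 and 48980 peaks and 144028, 107955 and 119597 footprints, which are short stretches of reduced cutting inside open DNA. The height of a peak is the authors' signal, on a scale that is not stated, and its median was 0.932, 0.975 and 1.14 in the same order, so heights ran higher in replicate 4. Heights were therefore also given as percentiles among all peaks of the same library. The number of reads is unknown, so no counting interval could be given. A promoter peak was found in every library for 6 of 10 monocyte marker genes, Csf1r, Cx3cr1, Itgam, Cd14, Lyz2 and Adgre4, beside 50.5% of all genes. Fcgr4 had one in replicates 1 and 4, Ly6c2 in replicate 1 only, Fcgr1 in replicate 4 only, and Ccr2 had none in any. In the other lists, a promoter peak in every library was found for 2 of 8 B cell, 2 of 7 plasmacytoid dendritic cell and 1 of 7 T cell markers. It was found for 2 of 7 neutrophil, 3 of 6 conventional dendritic cell and 0 of 5 natural killer markers. Of the B cell list, Blnk and Ebf1 were open in all 3 libraries at mean percentiles of 76.0 ± 5.54 and 27.8 ± 19.7 (SD, n = 3), Cd79b was open in replicate 1 only, and the other 5 genes, Ms4a1 and Pax5 among them, had no promoter peak in any library. Of the plasmacytoid dendritic cell list, Bst2 and Tcf4 were open in all 3 at 85.5 ± 2.15 and 82.6 ± 3.44, and the other 5, Siglech and Ccr9 among them, had none. The part of such cells in the values below was not tested.

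The promoters of the Toll-like receptor genes ranged from tall peaks in every library, at percentile 93.6 or above for Tlr2, to low peaks called in 1 library only. A peak was counted as a promoter peak where it came within 1 kb of any protein-coding transcription start site (TSS) of a gene. Such a peak was present in all 3 libraries for 6 of the 10 members, Tlr2, Tlr3, Tlr4, Tlr5, Tlr6 and Tlr9, where 50.5% of all genes had one. Per library the members with a promoter peak numbered 7, 7 and 9 of 10 in replicates 1, 2 and 4, against 54.3%, 52.2% and 52.9% of all genes. None of the 10 members lacked a promoter peak in every library, as 44.1% of all genes did. For Tlr7, Tlr8 and Tlr13 this rested on 1 low peak in 1 library each. The authors gave a longer and a shorter peak list for each library, and the longer one is used unless stated. In the shorter lists 3 members, Tlr2, Tlr4 and Tlr6, had a promoter peak in all 3 libraries, against 46.9% of genes. Among the taller 50% of peaks 4 did, these and Tlr9, against 44.0%. Tlr1, Tlr3, Tlr7, Tlr8 and Tlr13 had no promoter peak in the shorter list of any library. The share of all genes without one in any shorter list was not counted. Over the 6 members, the median percentile of the tallest promoter peak was 69.2 ± 4.87, against 87.0 ± 1.58 over all genes with a promoter peak in all 3 libraries (SD, n = 3 libraries). In bulk cells, a site open in fewer cells and a site opened less in each cell cannot be told apart.

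**Figure D1:**
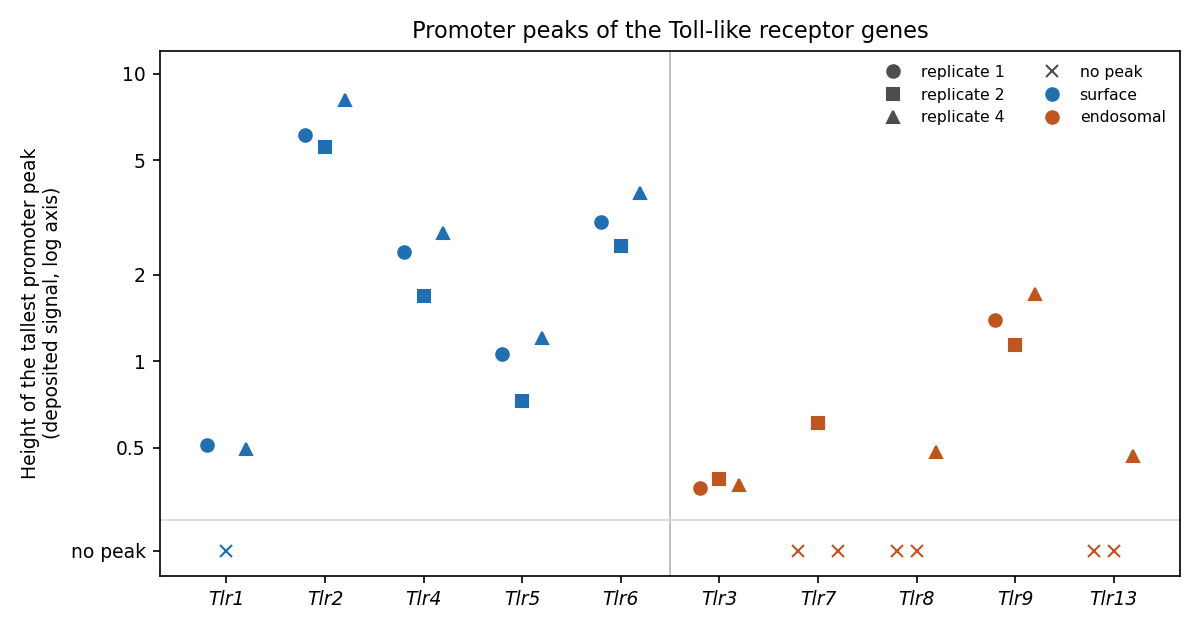
Height of the tallest promoter peak of each member in each library, as the authors' signal on a log axis, with surface receptors left of the line and endosomal receptors right of it; crosses mark libraries without a promoter peak. Tlr2 sits between 5.54 and 8.09 in the 3 libraries, above every other member, and Tlr7, Tlr8 and Tlr13 have a peak in 1 library each.

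Among the surface receptors, Tlr2 stood highest. Tlr2 (ENSMUSG00000027995.10, chr3:83836272-83841767, minus strand), which pairs with Tlr1 or Tlr6 to bind bacterial lipopeptides, had promoter heights of 6.10, 5.54 and 8.09 in replicates 1, 2 and 4, a mean of 6.58 ± 1.34 (SD, n = 3). These heights lay at percentiles 94.3, 93.9 and 93.6, so its rank was nearly the same in each library while its height was greatest in replicate 4. The peak was centred 96 bp downstream of the annotated start, in an exon of Tlr2, and held 8, 5 and 4 footprints. A second, lower peak in the intron, 611 bp downstream, was called in replicates 2 and 4, with heights of 1.15 and 1.70. In replicate 1 the shorter list held 2 promoter peaks of Tlr2, where the longer list held 1.

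The footprints of the 3 libraries overlapped in a stretch of 13 bp under the tall peak, shown because it is the longest stretch of any member promoter searched that lay under a footprint in every library. The bases are chr3:83841662-83841690 of GRCm38.p6 from the RefSeq promoter table, on the minus strand, which is that of the gene, with the shared bases in capitals.
Tlr2 promoter: tgcagaccCCTGTGGGCGGCGcttgccgc
A match to the KLF and SP motif (CCNCNCCC, searched on both strands) lay under the same peak at chr3:83841651-83841658, outside the stretch shown, and a footprint of each library overlapped it. Some 58.5% of 13700 promoter regions in all 3 libraries held that motif within 200 bp, so the match is a common one.

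Tlr6 (ENSMUSG00000051498.6, chr5:64952031-64960097, minus strand), the partner of Tlr2 for diacylated lipopeptides, had its tallest promoter peak at 3.04, 2.52 and 3.84 in replicates 1, 2 and 4 (3.13 ± 0.664, SD, n = 3; percentiles 84.6, 80.4 and 83.2). That peak was centred 1081 bp upstream of the start and only its edge entered the window. A separate peak at the start itself, centred 71 bp upstream, had heights of 1.49, 1.46 and 2.22 (1.72 ± 0.426; percentiles 68.1, 66.1 and 72.0). The upstream peak was thus the taller of the pair in every library. Tlr6 was also the member with most CpG around its start, with an observed over expected CpG ratio of 0.717 within 500 bp, against at most 0.436 in the other members.

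The sequence before the Tlr6 start, chr5:64960098-64960248 of GRCm38.p6 from the RefSeq promoter table and again on the minus strand, is shown with the 15 bases under a footprint of every library in capitals.
Tlr6 promoter: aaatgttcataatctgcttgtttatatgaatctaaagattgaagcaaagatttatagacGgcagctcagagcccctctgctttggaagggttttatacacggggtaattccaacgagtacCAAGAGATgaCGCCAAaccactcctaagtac
None of the searched motifs had a match that overlapped these capitals, which says only that those letters are not there.

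Tlr4 (ENSMUSG00000039005.13, chr4:66827584-66930284, plus strand), the receptor of bacterial lipopolysaccharide, had promoter heights of 2.39, 1.68 and 2.80 in replicates 1, 2 and 4 (2.29 ± 0.568, SD, n = 3; percentiles 80.2, 70.4 and 77.3). The peak sat on the start, centred 27 to 37 bp downstream. Tlr5 (ENSMUSG00000079164.8, chr1:182954788-182976044, plus strand), the receptor of flagellin, had heights of 1.06, 0.727 and 1.21 (0.998 ± 0.248; percentiles 55.3, 34.3 and 52.6), and its peak was centred 959 bp upstream of the start. Peaks closer to the Tlr5 start, of 0.684 at most, were called in replicates 1 and 2 and not in replicate 4. Tlr1 (ENSMUSG00000044827.10, chr5:64924679-64933563, minus strand), the partner of Tlr2 for triacylated lipopeptides, had low promoter peaks of 0.511 in replicate 1 and 0.495 in replicate 4 and none in replicate 2. In replicate 2 no interval with a false discovery rate (FDR) of cutting under 0.05 was listed in its promoter window either. Of the 10453 genes without a promoter peak in that library only 240 had such an interval, so its absence adds little.

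Among the endosomal receptors, Tlr9 had the only promoter of moderate height. Tlr9 (ENSMUSG00000045322.10, chr9:106222598-106226883, plus strand), which binds unmethylated CpG DNA, had heights of 1.39, 1.14 and 1.71 in replicates 1, 2 and 4 (1.41 ± 0.283, SD, n = 3; percentiles 65.7, 57.0 and 64.7), centred 94 bp downstream of the start. Tlr3 (ENSMUSG00000031639.12, chr8:45395665-45411080, minus strand), the receptor of double-stranded RNA, had a promoter peak in every library, but these were among the lowest peaks called, at 0.363, 0.390 and 0.371 (0.375 ± 0.0140; percentiles 5.36, 5.12 and 2.81). The Tlr3 peak of replicate 4 did not overlap those of replicates 1 and 2, no footprint lay in any of them, and none was in the shorter lists.

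The 3 X-linked members, all endosomal, had a promoter peak in 1 library each. Tlr7 (ENSMUSG00000044583.13, chrX:167304929-167330558, minus strand), which senses single-stranded RNA, had one of 0.612 in replicate 2. Its neighbour Tlr8 (ENSMUSG00000040522.5, chrX:167242696-167264329, minus strand), known for the same role in human, had one of 0.483 in replicate 4. Tlr13 (ENSMUSG00000033777.4, chrX:106143204-106160493, plus strand), which recognises bacterial ribosomal RNA, had one of 0.470 in replicate 4. In the other libraries no interval with an FDR under 0.05 was listed in the promoter windows of these genes. That was usual where no promoter peak was called, so it adds little. Such an interval was listed for 236 of 9996, 240 of 10453 and 198 of 10288 genes without a promoter peak in replicates 1, 2 and 4. None of the 3 had a promoter peak in all libraries, against 32.0% of 948 X-linked genes, which 3 genes are too few to set apart.

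In the order of promoter percentile, Tlr2 (93.9 ± 0.348) was followed by Tlr6 (82.7 ± 2.14), Tlr4 (75.9 ± 5.04), Tlr9 (62.5 ± 4.74), Tlr5 (47.4 ± 11.4) and Tlr3 (4.43 ± 1.41; SD, n = 3 libraries each). The order was the same in each library, and the ranges of neighbours in it did not overlap, although the highest value of Tlr4 (80.2) nearly met the lowest of Tlr6 (80.4). If the peak at the start of Tlr6 is taken in place of the upstream one, its range of 66.1 to 72.0 overlaps that of Tlr4 from 70.4 to 80.2. Among 59 genes of the pathway, the one with promoter percentiles most like those of Tlr2 over the 3 libraries was Chuk, a kinase that activates NF-kB, at a Euclidean distance of 1.37 percentile points. It was Traf3, a ubiquitin ligase, for Tlr6 (2.48), Cd14 for Tlr9 (3.34), Myd88 for Tlr4 (7.08) and Ly96, the co-receptor of Tlr4, for Tlr5 (11.8). Rel, at percentiles 93.7, 92.6 and 93.9 in replicates 1, 2 and 4, was almost as near to Tlr2, so Chuk was not set apart. The nearest to Tlr3 was also Ly96, at 85.3 points, so no pathway gene had promoter peaks as low as those of Tlr3 in all libraries.

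The members shared a feature of promoter sequence that the choice by name did not use. Their CpG ratio had a median of 0.276 and was below the median of all genes, 0.571, in 9 of 10, with Tlr6 the exception. Of these 9, Tlr2, Tlr3, Tlr4, Tlr5 and Tlr9 had a promoter peak in all 3 libraries, 5 of 9, while 20.7% of the 10925 genes below the median CpG ratio did. Among X-linked genes below that median the percentage was 15.5%, beside 0 of the 3 X-linked members. Genes below the median CpG ratio were thus less often open than all genes (50.5%), and the relation of CpG content to height within the family was not tested. The 5 open members take in Tlr3, with peaks among the lowest called, and Tlr5, with its peak centred 959 bp upstream. In the shorter lists only Tlr2 and Tlr4 of these kept a promoter peak in all 3 libraries. The share of genes below the median CpG ratio was not counted in those lists.

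Distal sites were more numerous around the members than around the average gene. A distal peak lies outside every promoter window, with its midpoint within 50 kb of the most upstream protein-coding TSS of the gene. Per member there were on average 5.30, 3.40 and 4.30 of them in replicates 1, 2 and 4 (mean 4.33 ± 0.950), against 2.68, 2.04 and 2.46 over all genes (mean 2.40 ± 0.326; SD, n = 3). The members were higher in 3 of 3 libraries, also by the median gene, which had 5, 3 and 4.5 distal peaks among the members, against 2, 1 and 2 among all genes. The excess was not particular to the members. Means of the 7 marker lists ran from 2.33 ± 0.165 (plasmacytoid dendritic cell) to 7.67 ± 1.29 (monocyte). Neutrophil markers stood at 6.24 ± 0.502 and natural killer markers at 4.00 ± 0.346. At least 1 distal peak in every library was found for 9 of 10 members, all but Tlr7, against 60.0% of all genes. Single genes differed widely. Tlr5 had 10, 7 and 8 distal peaks, Tlr2 had 8, 5 and 7, Tlr9 had 8, 6 and 5 and Tlr13 had 6, 5 and 8. Tlr8 had 6, 3 and 4 and Tlr1 had 4, 3 and 5. The fewest were around Tlr3 with 4, 2 and 2, Tlr4 with 3, 2 and 1, Tlr6 with 2, 1 and 3 and Tlr7 with 2, 0 and 0. Within the family, Tlr4 thus stood after only Tlr2 and Tlr6 by promoter percentile and among the last by distal peaks, while Tlr13 and Tlr8 had more distal peaks than Tlr4 and a promoter peak in 1 library each. Beside all genes, the distal count of Tlr4 was ordinary, at percentile 56.3 of genes on average over libraries.

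**Figure D2:**
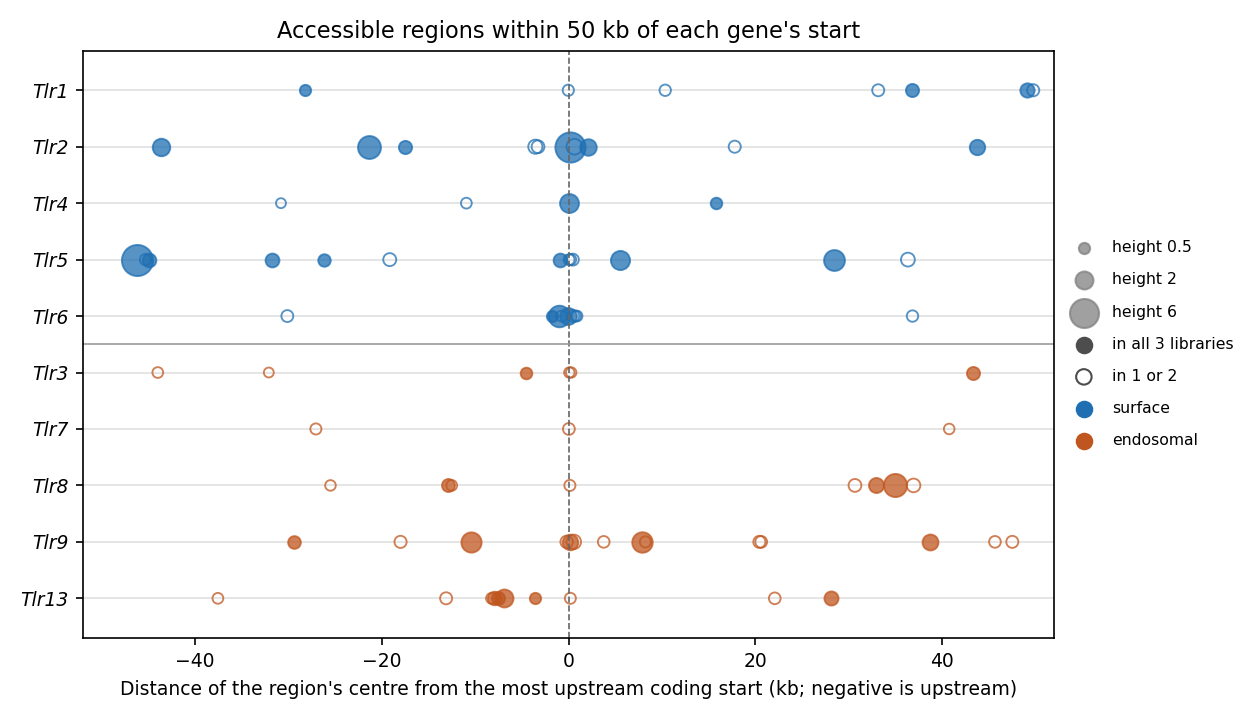
Regions of merged peaks by the distance of their centre from the most upstream coding start of each member, in kb along the gene's strand, with surface receptors above the line and endosomal receptors below it. The area of a circle grows with the mean height over the libraries that hold the region, filled circles are regions of all 3 libraries and open ones of 1 or 2; the tallest circles lie at the start of Tlr2 (6.58) and 46.2 kb upstream of Tlr5 (7.0).

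Merging the peaks of all libraries gave 59 distal regions in the members' windows, of which 29 held a peak of every library. Tlr1 and Tlr6, whose starts lie 26.5 kb apart, shared 1, 1 and 2 distal peaks in replicates 1, 2 and 4, and Tlr8 and Tlr7, 66.3 kb apart, shared 1 in replicate 1. A region near a gene need not act on it, and other protein-coding genes start within 50 kb of Tlr1, Tlr3, Tlr6, Tlr9 and Tlr13.

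The tallest distal region of the family lay 46.2 kb upstream of Tlr5, at chr1:182908481-182908700, in an exon of the noncoding gene Gm37542. Its heights were 6.31, 5.82 and 8.86 in replicates 1, 2 and 4 (7.0 ± 1.64, SD, n = 3; percentiles 94.7, 94.5 and 94.7). It was taller than the promoter peak of Tlr5 in every library, where that stood at 1.06, 0.727 and 1.21. A region 28.4 kb downstream of the Tlr5 start had a mean height of 2.90 ± 0.311, and an intronic one 5.50 kb downstream 2.36 ± 0.260.

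Upstream of Tlr2 the tallest distal region lay at chr3:83862961-83863340, in intergenic sequence 21.4 kb before the start, with heights of 4.07, 2.47 and 4.22 (3.59 ± 0.974; percentiles 89.2, 79.9 and 84.7). It held 6, 6 and 8 footprints in replicates 1, 2 and 4. No other protein-coding gene starts within 50 kb of Tlr2. Further regions of all libraries lay 43.6 kb upstream (1.90 ± 0.30), in the intron 2.05 kb downstream (1.64 ± 0.576) and 43.7 kb downstream (1.37 ± 0.267), the last one nearer to Sfrp2.

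Around the endosomal genes, Tlr8 had a tall region 34.9 kb downstream of its start, beyond the end of the gene, at chrX:167229261-167229480, with heights of 3.20, 2.85 and 4.94 (3.66 ± 1.12). It lies nearer to the start of Tmsb4x, a gene of an actin-binding peptide, at 20.1 kb. Tlr9 had a region 7.82 kb downstream of its start, beyond the end of the gene, at chr9:106230241-106230580, with heights of 2.58, 2.26 and 3.43 (2.76 ± 0.603), for which Tlr9 is the nearest gene start. A second tall region, 10.5 kb upstream in an intron of Twf2, had heights of 2.35, 2.23 and 3.45 (2.68 ± 0.676). Tlr13 had a cluster of 4 regions in all libraries between 8.05 and 3.64 kb upstream, the tallest at 6.94 kb, chrX:106136061-106136560, with heights of 2.04, 1.67 and 2.33 (2.01 ± 0.331). That cluster was present in replicates 1 and 2, where Tlr13 had no promoter peak.

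The tallest distal regions of the remaining members were 49.1 kb downstream of Tlr1 (1.11 ± 0.441; percentiles 58.1, 29.1 and 61.5), 43.3 kb downstream of Tlr3 in an intron of Fam149a (0.856 ± 0.0884), 15.8 kb downstream of the Tlr4 start in its intron (0.569 ± 0.0550) and 1.78 kb upstream of Tlr6 (0.522 ± 0.0499; SD, n = 3 each). All but that of Tlr1 lay below the median peak height in every library. Tlr7 had no distal region in all 3 libraries.

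Footprints in promoter peaks were found in every library for 5 members, Tlr2, Tlr4, Tlr5, Tlr6 and Tlr9, against 48.2% of all genes. Of the 29 distal regions of all libraries, 14 held at least 1 base under a footprint of every library, as did 55.8% of 20741 such regions of the genome. A shared stretch of 20 bp or more was in 7 of the 29, and in 18.0% of the genome's. These 7 sites are shown, since they are where the 3 libraries placed the same long footprint. They lie at chr3:83798002-83798044, chr1:182908562-182908610, chr1:182960292-182960333, chr1:182983054-182983094, chrX:167229329-167229378, chr9:106212114-106212157 and chrX:106171249-106171288, in the order of the lines, read from GRCm38.p6 on the plus strand with 10 bp on either side. Capitals mark the bases under footprints of all 3 libraries, and each name gives the distance of the region from the start of the gene.
Tlr2 43.7 kb downstream: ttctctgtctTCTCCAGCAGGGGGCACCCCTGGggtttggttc
Tlr5 46.2 kb upstream: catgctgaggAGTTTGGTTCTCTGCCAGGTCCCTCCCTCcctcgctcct
Tlr5 5.50 kb downstream: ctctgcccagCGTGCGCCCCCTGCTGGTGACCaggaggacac
Tlr5 28.4 kb downstream: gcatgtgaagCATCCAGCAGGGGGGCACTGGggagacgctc
Tlr8 34.9 kb downstream: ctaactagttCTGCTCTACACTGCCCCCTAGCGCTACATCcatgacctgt
Tlr9 10.5 kb upstream: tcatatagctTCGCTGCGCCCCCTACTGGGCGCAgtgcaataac
Tlr13 28.0 kb downstream: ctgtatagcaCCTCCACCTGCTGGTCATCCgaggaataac
The footprinted bases of 3 of the 7 sites, those of Tlr2, Tlr5 at 5.50 kb and Tlr9, matched the extended consensus of CTCF, the insulator protein that anchors chromatin loops, with no mismatch. With 1 mismatch allowed 5 did, and with 2 allowed 6. Over the 4011 shared footprints of 20 bp or more in the genome's distal regions the percentages were 27.6%, 61.6% and 75.8%. The consensus was searched in each footprint with 10 bp on either side. Most long shared footprints thus bore it with 1 mismatch allowed, and a minority without mismatch. The exception among the 7 sites was the tall one 46.2 kb upstream of Tlr5, with 4 mismatches. A match describes letters and does not show that the protein was bound.

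The window of 200 bp around the centre of the region 21.4 kb upstream of Tlr2, chr3:83863058-83863257 on the plus strand, is shown. It was chosen for matches to motifs of myeloid regulators that footprints overlapped. Capitals mark, from left to right, a C/EBP match (TTGCNNAA), a match to the ETS-IRF composite motif (GGAANNGAA) and a KLF and SP match. A footprint of every library overlapped each match by at least 1 bp. The bases under footprints of all 3 libraries took in the whole KLF and SP match and part of the composite match. Of the C/EBP match they took in only the base at its left edge, chr3:83863124.
Tlr2 21.4 kb upstream: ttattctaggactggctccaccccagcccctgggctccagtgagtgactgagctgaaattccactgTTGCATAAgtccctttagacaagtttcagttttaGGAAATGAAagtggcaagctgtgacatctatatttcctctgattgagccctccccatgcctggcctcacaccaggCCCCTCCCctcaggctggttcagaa
The C/EBP motif was in 11.8%, the composite in 9.57% and the KLF and SP motif in 27.0% of the 20741 distal regions within the same length. C/EBP factors drive myeloid differentiation, and the composite motif is bound by the myeloid factor PU.1 together with Irf4 or Irf8.

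In the window of the region 7.82 kb downstream of Tlr9, chr9:106230314-106230513 on the plus strand, the capitals mark a match to the NF-kB motif (GGGANTTTC) on the minus strand. A footprint of every library overlapped the match. The bases under footprints of all 3 libraries there, chr9:106230468-106230477, took in only its right end.
Tlr9 7.82 kb downstream: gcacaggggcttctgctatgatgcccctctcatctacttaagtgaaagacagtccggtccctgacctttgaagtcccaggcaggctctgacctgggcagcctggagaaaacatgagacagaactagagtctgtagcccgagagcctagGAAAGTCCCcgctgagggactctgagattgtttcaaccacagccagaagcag
That motif was in 1.07% of the genome's distal regions, and in 1 of the 28 member regions searched.

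Motifs, 15 of them, were searched on both strands in 28 distal and 5 promoter regions of all libraries, in 200 bp around the centre. Regions of Tlr4 and Tlr7 were not included, and not all motifs are named below. Of the 28 distal regions, 6 held the C/EBP motif, against 11.8% of the genome's, and 5 the RUNX motif (TGTGGTT), against 7.25%. The KLF and SP motif was in 7, against 27.0%, and a short CTCF motif (CAGNNGGC) in 4, against 29.6%. The PU.1 motif (GAGGAAG) was in 4, against 19.5%, and in 1 of these, 26.2 kb upstream of Tlr5, a footprint of every library overlapped the match. The NR4A motif (AAAGGTCA) was in 3, against 1.38%, with no match overlapped by a footprint of every library. With so few regions, a difference of a few matches decides each share.

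In each library more surface than endosomal receptors had a promoter peak, and the median promoter height was greater among surface receptors, while single genes crossed the classes. The endosomal Tlr9 had a taller promoter peak than the surface receptors Tlr5 and Tlr1 in each library. Promoter peaks were present in all 3 libraries for 4 of 5 surface and 2 of 5 endosomal receptors. Per library, 5, 4 and 5 surface genes had one in replicates 1, 2 and 4, against 2, 3 and 4 endosomal genes. Among the taller 50% of peaks the counts were 4, 3 and 4 surface genes, against 1 endosomal gene, Tlr9, in each library. In the shorter lists they were 4, 3 and 4, against 1, 0 and 1. The median height of the tallest promoter peak, with genes without a peak set at 0, was 2.39, 1.68 and 2.80 for surface genes, against 0, 0.390 and 0.470 for endosomal genes, so surface genes were higher in 3 of 3 libraries. Promoter peaks of surface genes held 33, 15 and 22 footprints, against 9, 1 and 4 for endosomal genes. These are totals of a class and not values per peak, and more surface genes had a promoter peak. These counts compare 5 genes with 5, which are no replicates of a class, so no test was made.

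**Figure D3:**
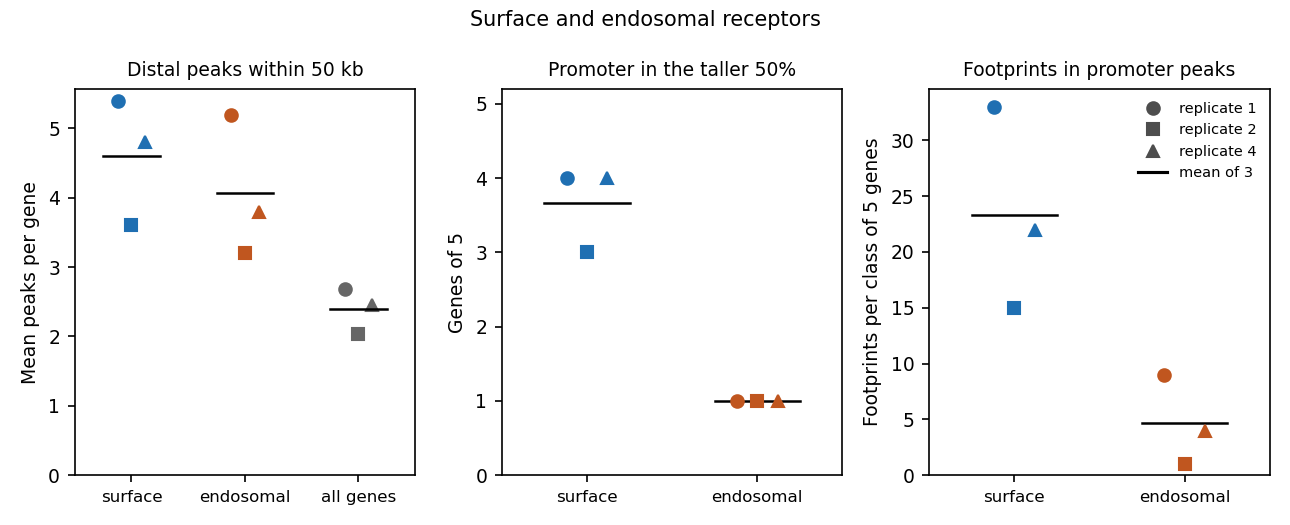
Values of the 5 surface and the 5 endosomal receptors in each library, with bars at the mean of 3 libraries: mean distal peaks per gene with all genes beside them, genes with a promoter peak in the taller 50% of peaks, and footprints in promoter peaks. The classes lie apart in the middle and right panels, and close together in the left one, at means of 4.60 and 4.07 distal peaks per gene. Footprints are summed over each class and not given per peak.

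The mean number of distal peaks per gene was 5.4, 3.6 and 4.8 for surface receptors in replicates 1, 2 and 4, against 5.2, 3.2 and 3.8 for endosomal receptors. The difference, surface minus endosomal, was 0.20, 0.40 and 1.0, a mean of 0.533 ± 0.416 (SD, n = 3). It was positive in 3 of 3 libraries, with p = 0.25 in a two-sided exact sign-flip permutation test over libraries, which is the smallest p that 3 libraries allow. Within 25 kb of the start the difference was -0.333, so its direction depended on the window. The median height of the distal peaks was 0.837, 0.834 and 1.14 around surface genes, against 0.759, 0.865 and 0.953 around endosomal genes, and the order of the classes differed between libraries. Of the distal regions, 15 of 27 around surface genes and 14 of 32 around endosomal genes were in all 3 libraries.

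Of the 5 endosomal receptors 3 are X-linked, and no surface receptor is, so compartment and chromosome cannot be told apart for Tlr7, Tlr8 and Tlr13. Among autosomal genes, 5, 4 and 5 of 5 surface receptors had a promoter peak in replicates 1, 2 and 4, against Tlr3 and Tlr9, 2 of 2, in each library. On autosomes the distal difference was 0.100 ± 1.04, with -0.600, -0.400 and 1.30 in the 3 libraries.

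The partners of the receptors were open at their promoters more often than the receptors were. Of 59 genes in 5 lists of the pathway, 55 were open there in all 3 libraries, beside 6 of 10 receptors and 50.5% of all genes. All 6 adaptors did, with Myd88, the common adaptor, at a mean percentile of 72.9 ± 1.81 and Ticam1, the adaptor of Tlr3, at 87.1 ± 1.08 (SD, n = 3). So did all 17 kinases and ligases and all 10 transcription factors, among them Jun at 99.2 ± 0.301 and Nfkb2 at 98.9 ± 0.387. Of 11 negative regulators 9 did, led by Tnfaip3, a ubiquitin-editing brake on NF-kB, at 99.8 ± 0.0756 and Tollip at 99.7 ± 0.129. The exceptions were Sigirr, with a promoter peak in replicate 4 only, and Il1rl1, the receptor of interleukin 33, with none.

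Of 15 chaperones and co-receptors 13 were open at the promoter in every library. Unc93b1, which carries the nucleic acid receptors to endosomes, stood at a mean percentile of 79.4 ± 2.14, above Tlr9 (62.5 ± 4.74) and the other endosomal receptors. Hsp90b1 and Cnpy3, chaperones that fold several Toll-like receptors, stood at 97.6 ± 0.702 and 96.2 ± 0.826. The co-receptors of Tlr4 were lower, with Cd14 at 60.9 ± 3.58 and Ly96 at 53.1 ± 9.49. Cd36, a scavenger receptor that assists Tlr2 and Tlr6, had a promoter peak in replicate 4 only, and Lbp, a lipopolysaccharide-binding protein of serum known as a liver product, had none.

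**Figure D4:**
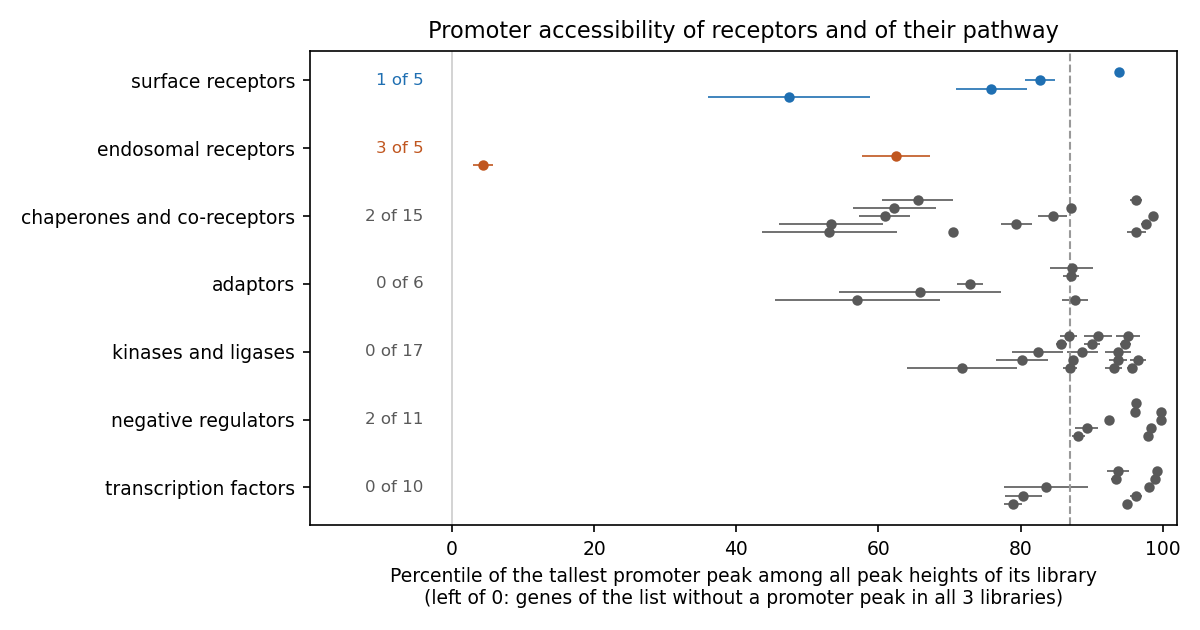
Mean percentile of the tallest promoter peak of each gene with one in all 3 libraries, by list, with bars of 1 SD over 3 libraries. The numbers at the left count the genes of each list without one in all 3. The dashed line is the median over all genes with a promoter peak in all 3 libraries (87.0, mean of 3 libraries). Endosomal receptors have 2 points, Tlr3 at 4.43 and Tlr9 at 62.5, while no gene of the adaptors, kinases and ligases or transcription factors is missing.

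Distal peaks averaged 4.33 ± 0.950 per receptor and 5.0 ± 0.570 per pathway gene (SD, n = 3). The 2 genes of each list with most were Ctsb (11 ± 4.0) and Rab7b (8.0 ± 1.0) among chaperones and co-receptors, which take in proteases and regulators of endosomal receptors, Pik3ap1 (10 ± 2.65) and Ticam2 (7.0 ± 1.0) among adaptors, Irak2 (10.3 ± 3.21) and Ikbke (6.33 ± 2.08) among kinases and ligases, Nfkbia (12 ± 2.0) and Dusp1 (11.3 ± 2.31) among negative regulators, and Fos (21 ± 1.0) and Jun (8.67 ± 2.08) among transcription factors. Tlr5, the member with most, had 8.33 ± 1.53.

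The other family members of the mouse, Tlr11 and Tlr12, which recognise profilin of Toxoplasma and are outside the 10, had no promoter peak in any library. Tlr11 had 1 distal peak in each library, and Tlr12 had 1, 1 and 3. The single distal region of Tlr11 in all libraries, 5.27 kb upstream, had a mean height of 0.662 ± 0.289 and lay nearer to the start of Olfr735.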

How the data were processed

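DNase-seq of 3 libraries of 1 group was used; replicate numbers come from the labels. Per the labels, the files are on mm10. Per the file headers and deposited descriptions, peaks, footprints and false discovery rates were made separately for each library; which aligner, peak caller and footprint method were used is not given in the sources used here. The authors deposited peak heights as a signal of cutting on a scale that is not stated; it served to rank and describe peaks within a library. The FDR, a value of the p-value kind, was deposited by the authors where it was under 0.05. The deposited footprints carry 1 constant p-value threshold, which was not used. The longer of the 2 peak lists of each library was the main one.

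Genes and TSSs were those of the GENCODE M21 basic annotation (release 21), with 41438 protein-coding TSSs of 21851 genes, and sequence was GRCm38.p6. Overlaps of at least 1 bp counted, and percentiles are midranks. RefSeq sequence tables (GRCm38.p6) held 8 of the 10 members. Computation used Python 3.11.15, pandas 2.3.3 and numpy 2.4.6, and the interval code was tested on simulated data. Surface and endosomal receptors were compared per library, with an exact sign-flip test for distal peaks.

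The members, the 15 gene lists (5 of the pathway, 7 of markers), the motifs and the tests were chosen with earlier results of these data known. Named were all members, Tlr11, Tlr12, each pathway gene without a promoter peak in all 3 libraries, the 2 of each list with most distal peaks, and the nearest gene by promoter percentile; other pathway genes named, several regions and the extended CTCF consensus were chosen after their values were seen. Alternatives were the shorter list, the taller 50% of peaks, leaving out each replicate, other windows, a larger overlap, all transcripts for the TSS, shared peaks counted once and autosomal receptors only.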

Additional observations from a re-analysis of the deposited data

How the results depend on the processing

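The pathway count of 55 stayed between 52 and 55 under 9 alternatives. With the shorter peak lists, members with a promoter peak in all libraries fell to 3 and members with a footprint there to 3, against 6 and 5, distal peaks per member to 2.50, the distal difference between surface and endosomal genes to 0.0667, and the difference in genes with a promoter peak became 3 (main 1.67). The median promoter percentile became 82.7 with the shorter lists and 79.3 with the taller 50% of peaks, since lower members drop out; distal peaks per member were then 1.60. Distal windows of 25 kb and 100 kb gave 2.03 and 7.37 peaks per member, and the members' mean stayed above that of all genes in 3 of 3 libraries (1.36 to 1.81 times over these settings). The distal difference turned to -0.333 at 25 kb and became 1.40 at 100 kb, and 0.100 on autosomes alone, an alternative chosen after the data were seen; the cause was not tested. A promoter window of 500 bp left 5 members, without Tlr5.

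Leaving out 1 replicate at a time gave 6 to 7 members with a promoter peak, 3.85 to 4.8 distal peaks per member, a median percentile of 65.2 to 68.3, a distal difference of 0.30 to 0.70, a promoter difference of 1 to 2 and 5 to 6 members with a footprint; Tlr1 enters without replicate 2. The difference between the classes was taken within each library in every setting.

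The read depth is unknown. Replicate 2 had the fewest peaks, so a low peak missing there cannot be told from one below detection.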
